A study of Drosophila melanogaster with 12 samples.

Results

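The regions described here are the short stretches of State 9, the state named transcriptionally silent and intergenic, in a published map that divides the Drosophila genome into 9 chromatin states. They were taken from the list of regions deposited with the series by 3 conditions, namely State 9, a length under 10000 bp and a position on one of the 5 large chromosome arms (2L, 2R, 3L, 3R and X). This gave 5820 regions of 42126 in the list (13.8%) and of 7939 State 9 regions (73.3%). These conditions use no sequencing value, although they were set with earlier results of these data known. The study used the map to ask where GFP-tagged histones lie in the genome of male germ cells. Its 12 libraries held 3 replicates of each of 4 histones, which were wild-type H3 (H3-GFP), H3 with a serine at residue 31 (H3A31S-GFP), wild-type H3.3 (H3.3-GFP) and H3.3 with an alanine at that residue (H3.3S31A-GFP). In every group a nos-Gal4 driver expressed the tagged histone together with the Unpaired (Upd) ligand in the early germline. The flies also carried a heat-shock Flp recombinase, which can switch the histone cassette from its GFP form to an mCherry form. The paper mentions no heat shock for the ChIC samples. Each histone cassette came from its own transgenic line. The H3A31S-GFP flies carried a different nos-Gal4 line from the others. Their histone cassette was on another chromosome than the Upd transgene, whereas in the other groups both were on the same one. Testes came from males aged about 2 days and reared at 25°C, 18 to 20 pairs of them pooled for a replicate. Upd tumours contain stem-like germ cells and somatic cells, while the tagged histones are made only in the germ cells. The anti-GFP reads were obtained by chromatin immunocleavage (ChIC), in which an antibody directs MNase to cut DNA at the tagged protein. The 12 columns of the deposited count table carry no library names, so the histones were not compared and only the sum over all 12 columns was used.

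Chromatin states are recurring combinations of histone modifications and bound proteins. In the modENCODE map, State 1 marks active promoters and transcription start sites (TSSs), State 2 the bodies of transcribed genes, State 3 intronic regulatory sequence, State 4 open chromatin with H3K36 monomethylation, State 5 active genes of the male X, State 6 Polycomb-bound chromatin, State 7 pericentromeric heterochromatin and State 8 heterochromatin-like stretches within euchromatin. State 9 is what remains in that map where no mark is strongly enriched, whereas the study describes it as usually carrying H3K27me3. The map was made in cultured Drosophila cell lines, not in testis, so a State 9 label describes those lines. H3 is deposited during DNA replication, and H3.3 also outside it, mainly where nucleosomes are lost and replaced.

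Reference sequence shows what such regions look like at the letter level. On 2L, 3 regions of exactly 200 bp, the shortest length in the list, were chosen by GC content, and their whole dm6 plus-strand sequence is given from 5′ to 3′. The region of highest GC content (49.5%) is chr2L:18531163-18531362, with 154 bp of coding exon and 46 bp of intron of CG10211. The region of lowest GC content (18.0%) is chr2L:19185763-19185962, intergenic and next to the TSS of gammaTub37C, which encodes the maternal form of gamma-tubulin, at position 19185726. The region of intermediate GC content (44.0%) is chr2L:9078763-9078962, also intergenic, with the TSS of CG12439 nearest. Capitals mark matches on either strand to GAGAG (letters bound by GAGA factor), to TATCGATA (the core of the DRE element), to TATAAA (the TATA box) or to AAAAAAAA. A run of T, the complement of AAAAAAAA, is in capitals in the AT-rich region, and the others hold no match.
Highest GC, CG10211: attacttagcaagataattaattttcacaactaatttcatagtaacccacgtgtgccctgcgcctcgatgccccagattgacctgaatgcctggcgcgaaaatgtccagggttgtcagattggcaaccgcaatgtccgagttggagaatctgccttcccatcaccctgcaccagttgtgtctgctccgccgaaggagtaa
Lowest GC, near gammaTub37C: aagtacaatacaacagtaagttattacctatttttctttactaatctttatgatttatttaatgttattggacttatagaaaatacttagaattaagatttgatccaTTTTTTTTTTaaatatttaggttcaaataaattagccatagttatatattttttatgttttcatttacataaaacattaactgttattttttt
Intermediate GC, near CG12439: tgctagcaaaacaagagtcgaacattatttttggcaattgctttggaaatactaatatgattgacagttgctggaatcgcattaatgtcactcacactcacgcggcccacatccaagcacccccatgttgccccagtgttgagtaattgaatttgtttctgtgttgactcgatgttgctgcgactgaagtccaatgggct
The fourth sequence is an edge between State 9 and State 1, with 100 bases on either side (chr2L:6488663-6488862, dm6, plus strand). The capitals are the last bases of a short State 9 region, and the lower case is the State 1 region that begins there. The TSS of KFase, which encodes kynurenine formamidase and is transcribed from the minus strand, is position 6488756, which is 6 bp inside the State 9 region. This edge holds the TSS nearest to any edge of its kind among the regions of at least 1000 bp.
State 9 to State 1 edge at KFase: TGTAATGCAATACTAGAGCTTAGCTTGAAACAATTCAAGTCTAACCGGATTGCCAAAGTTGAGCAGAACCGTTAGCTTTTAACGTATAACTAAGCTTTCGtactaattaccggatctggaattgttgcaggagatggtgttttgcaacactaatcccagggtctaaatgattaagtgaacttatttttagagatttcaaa

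The summed reads over these regions were 93 for the GC-richest, 91 for the GC-poorest and 131 for the intermediate one. With exact Poisson intervals of 75.1 to 114, 73.3 to 112 and 109.5 to 155 reads, the first 2 cannot be told apart at this depth, and the intervals of the last overlap both. Regions of this length were few, 103 in all, and hold 0.128% of the summed length of short State 9 regions. The KFase region is 7400 bp long (chr2L:6481363-6488762), has a GC content of 49.0%, and held 4093 summed reads, or 553 reads per kb. All these intervals cover counting error only.

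Short State 9 regions had a median length of 1800 bp, with quartiles of 800 and 4000 bp, and ranged from 200 to 9800 bp. The most frequent length was 600 bp, with 577 regions. Regions of 1000 bp or less made up 33.7% by number (1960 regions) but 8.25% by length, whereas the 1043 regions of over 5000 bp made up 17.9% by number and 47.1% by length. The length limit fell in a flat part of the distribution, since 33 regions measured 9800 bp, just inside it, and 27 measured 10000 bp, just outside it. The 2076 long State 9 regions on the same arms had a median of 21400 bp and reached 328600 bp. Short regions therefore hold 16.1 Mb of summed State 9 length against 62.5 Mb in long ones, and make up 6.33% of the summed length of the whole list.

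**Figure D1:**
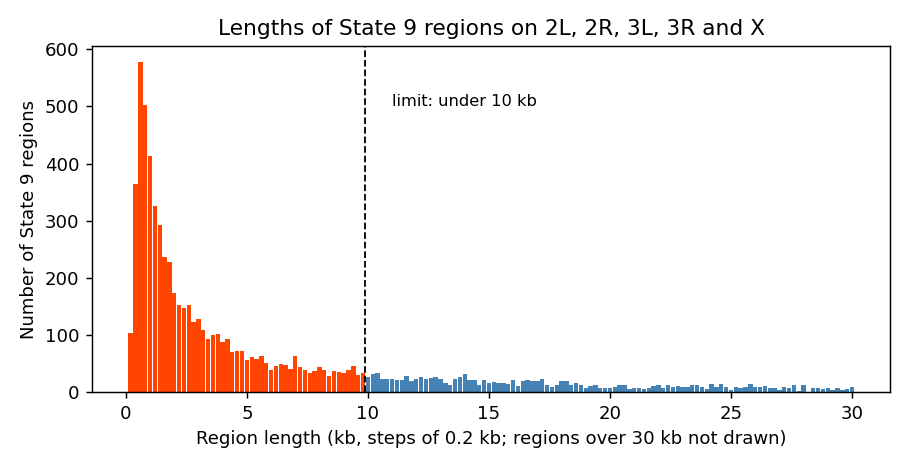
Number of State 9 regions (vertical axis) by length in kb (horizontal axis, steps of 0.2 kb) on the 5 arms, with short regions in orange and long ones in blue. The counts peak at 577 regions of 600 bp and fall to 33 regions of 9800 bp at the dashed limit.

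The regions were spread evenly over the autosomal arms. There were 1155 on 2L, 1097 on 2R, 1210 on 3L, 1299 on 3R and 1059 on X. On the autosomal arms between 70.3% (3R) and 74.5% (2L) of State 9 regions were short, against 83.8% on X. X also had the lowest median length of short regions (1600 bp, against 1800 to 2000 bp on the autosomal arms) and the smallest share of listed length in long State 9 regions, 13.0% against 27.6% to 32.9%. The list belongs to no sample, so these counts have no replicate spread.

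The neighbours of short State 9 regions were mainly open and Polycomb chromatin. Of their 11640 edges, 37.5% met a State 4 region and 20.9% a State 6 region, followed by State 2 (13.2%), State 8 (11.6%) and State 1 (8.8%). Among all regions of States 1 to 8 on these arms, State 4 makes up 19.1%, State 6 5.48% and State 1 21.3%. Edges with Polycomb chromatin were more frequent for short than for long State 9 regions, at 20.9% against 13.4% of edges, while State 2 was less frequent at 13.2% against 17.8%. State 4 lay at both edges of 1187 short regions (20.4%), and State 6 at both edges of 743 (12.8%). Whether the latter are gaps inside larger Polycomb domains was not tested. Regions in the list overlap, and for 453 of all short regions (7.78%) State 6 regions were the most frequent overlap. State 1 flanked only 78 regions (1.34%) on both sides.

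**Figure D2:**
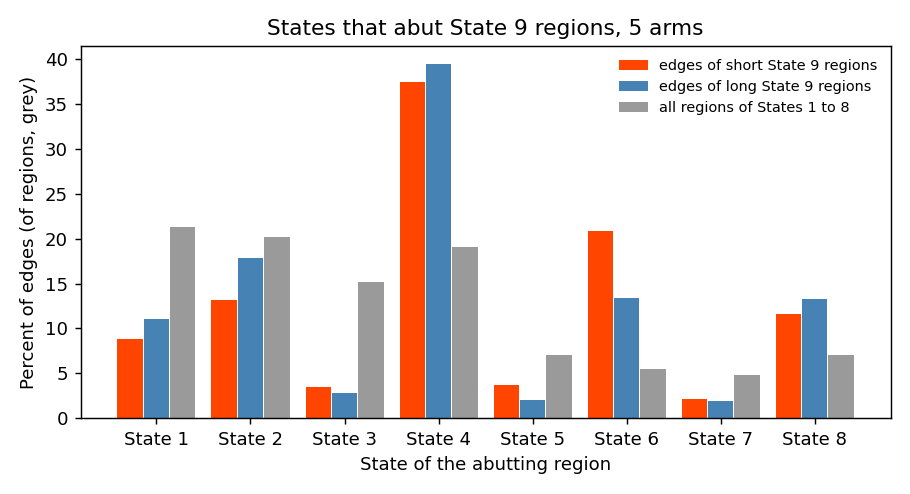
Percent of edges of short (orange, 11640 edges) and long (blue, 4152 edges) State 9 regions that meet a region of each other state, beside the percent of each state among all regions of States 1 to 8 (grey), on the 5 arms. State 6 meets 20.9% of short and 13.4% of long edges, and State 4 meets 37.5% and 39.5%.

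On X both the neighbours and the states present differed from those on 2L. State 8 met 26.5% of the edges of short regions there and State 4 25.9%, with State 6 at 19.3% and State 5, the state of active X-linked genes, at 15.8%. Among the X regions of States 1 to 8, State 8 makes up 14.8%, State 4 11.8%, State 6 4.47% and State 5 29.1%. On 2L State 8 met 12.3% of edges and makes up 6.57% of regions, and State 5 met 1.52% and makes up 1.47%. Long State 9 regions on X had the same leading neighbours, State 8 at 31.7% and State 4 at 30.0%.

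Nearly every base of the list lies in 2 regions, and the state of the second region was not used to choose the first. For 99.4% of the 200 bp steps in short State 9 regions a second region was present, and its state was also 9 for 56.7% of them (26.1% in another short region and 30.6% in a long one). The second region was State 4 for 14.3%, State 8 for 10.3%, State 6 for 5.91%, State 2 for 5.83% and State 1 for 0.959%. Long State 9 regions were given State 9 again over 66.5% of their steps and State 8 over 20.8%. Among States 1 to 8 the share given the same state again ran from 18.8% (State 8) to 83.3% (State 1). It was 58.8% for State 3 and 48.0% for State 4. By whole regions, 2466 of the short ones (42.4%) had no base in another State 9 region, 1902 (32.7%) had every base in one, and 1198 (20.6%) lay wholly inside long State 9 regions. Each short region was also grouped by its most frequent second region, which need not cover most of it. The 147 grouped with State 1 were the shortest, with a median of 400 bp. The 1438 grouped with long State 9 regions had a median of 2600 bp. The sources used here do not say why the list covers the genome in 2 layers.

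The label intergenic was checked against dm6 genes on 2L, the arm whose listed coordinates match that build. In each window of 1 Mb up to 22 Mb, between 83.9% and 100.0% of State 1 regions held a TSS, and beyond it 12 of 40 did, where only 2 short State 9 regions lie. The 1155 short State 9 regions on 2L cover 2.91 Mb. Of these bases 34.2% were intergenic, 38.5% intron, 18.3% coding exon, 6.81% UTR and 2.17% other exon. Most bases of these regions were thus inside annotated genes, against the label, as were most bases of long State 9 regions and of the whole arm. The share of intergenic sequence was 30.9% over all listed bases, 40.2% in long State 9 regions and 13.3% in State 1 regions. Coding exon took as large a share of short State 9 regions as of all listed bases, 18.3% in both, against 12.2% of long ones. By region, 521 short ones (45.1%) lay wholly in genes, 188 (16.3%) wholly in introns and 243 (21.0%) wholly between genes. Annotated transposable elements made up 1.22% of their bases, against 4.08% of long State 9 regions and 5.0% of all listed bases.

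**Figure D3:**
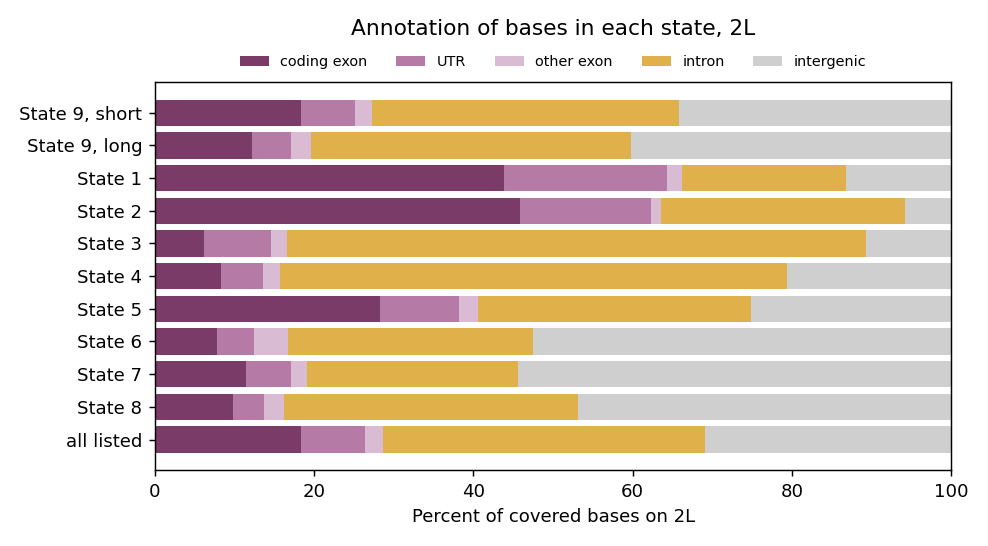
Share of covered bases on 2L (horizontal axis, percent) that are coding exon, UTR, other exon, intron or intergenic in the dm6 annotation, for each state. Short State 9 regions have 27.3% exon of any kind and 34.2% intergenic sequence, against 19.6% and 40.2% for long ones.

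Short State 9 regions were not depleted of start sites relative to the sequence they cover. They held 471 of the 3687 protein-coding TSSs on 2L, 12.8% (95% Wilson interval 11.7% to 13.9%, which treats TSSs as independent), on 12.7% of the listed bases. Long State 9 regions held 25.2% on 41.1% of the bases and State 1 regions 40.1% on 7.68%. This corresponds to 162 TSSs per Mb in short State 9 regions, 98.7 in long ones and 840.2 in State 1. The second region over these 471 TSSs was again State 9 for 247 (52.4%), State 4 for 74 (15.7%) and State 1 for 24 (5.1%). Bases given no other state than 9 held 6.78% of TSSs on 6.8% of the listed bases, or 161 TSSs per Mb. A TSS was present in 336 of the 1155 regions (29.1%), and 12 regions held the TSSs of 4 or more genes. The centre of a short State 9 region lay a median of 2598 bp from the nearest TSS, against 4278 bp for long ones and 335 bp for State 1.

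Of 2657 protein-coding genes on 2L, 391 (14.7%) had a TSS in a short State 9 region, and 180 of the 391 lay wholly in such regions. Their median length was 1993 bp, close to the 1986 bp of all genes. Gene families were then counted by lists of symbols. No test was made on them, and neighbours in a gene cluster often share a region. By number the seminal fluid list had the most, and by share the eggshell and digestive protease lists (3 of 5 genes each). The seminal fluid list was made of 35 genes with Acp, Sfp or lectin symbols, and their expression was not checked. Of these, 16 (45.7%) had a TSS in a short State 9 region, and 27 (77.1%) in a short or long one, against 37.3% of all genes. By symbol, 5 of 8 Acp genes, 5 of 16 Sfp genes and 6 of 11 lectin genes had a TSS in a short region. The 16 included Sfp38D, lectin-21Ca and lectin-21Cb, all wholly within short State 9 regions. They also included Acp1, which the symbol pattern takes in although it encodes an adult cuticle protein. The region with the most genes (chr2L:3695563-3705162, 9600 bp) held the TSSs of 9 genes, of which only Sfp24C1 is on that list, and 628 reads per kb, and was singled out after its values were seen.

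Of 37 chemosensory genes, receptors and binding proteins of smell and taste, 7 (18.9%) had a TSS in a short State 9 region, close to the 14.7% of all genes. In long State 9 regions there were 24 (64.9%), against 27.8% of all genes, and none in State 1. A gene can count in both, and 25 (67.6%) had a TSS in a short or long one, against 37.3% of all genes. Gr33a, a gustatory receptor gene (chr2L:12138008-12140392), lay wholly within a region of 5400 bp (chr2L:12135363-12140762) with 3117 summed reads. Gr28a and 1 of the 5 TSSs of Gr28b shared a region of 4200 bp, and the odorant receptor gene Or33b lay in a region of 7400 bp. Of 10 spermatogenesis genes, 2 (20.0%) had a TSS in short and 7 (70.0%) in long State 9 regions. These counts overlap, since 7 (70.0%) had a TSS in either, so both genes in short regions also count in long ones. The shares of all genes were 14.7% in short, 27.8% in long and 37.3% in either. The pair in short regions were Mst33A, a male-specific transcript, and Prosalpha6T, a testis-specific proteasome subunit, in regions of 9800 and 8200 bp.

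Small groups of genes used in other tissues were also present. In the eggshell list 3 of 5 genes, the vitelline membrane protein genes Vm26Ab, Vm26Ac and Vm32E, had a TSS in a short State 9 region. In the digestive protease list 3 of 5 did, and Jon25Bi, Jon25Bii and Jon25Biii, gut serine proteases, lay wholly within a region of 5400 bp (chr2L:4949763-4955162). Of 7 cuticle genes Cpr23B and Cpr30B were inside. None of 17 ribosomal protein genes had a TSS in a State 9 region of any length, and 16 had one in State 1. None of 112 histone genes did, of which 111 lay in State 7. Of 27 patterning genes, 22 had a TSS in State 6 and 3 in short State 9 regions. These were the homeobox gene bsh, the eye and gonad regulator eya, and bib, a neurogenic gene that encodes a membrane channel and not a transcription factor.

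In the list of germline stem cell and early germline genes, 11 of 19 had a TSS in State 1 and 3 (15.8%) in short State 9 regions, close to the 14.7% of all genes. They were bru1, a translational repressor of germ cells, vas, a germline RNA helicase, and Socs36E, a target and suppressor of JAK-STAT signalling, the pathway that Upd activates. For vas (chr2L:15061656-15074311) the region was only 600 bp long (chr2L:15061563-15062162), covered its TSS and 4.01% of the gene, and held 386 summed reads, or 643 reads per kb (581 to 711). For Socs36E the region covered 55 bp of the gene at its TSS and extended upstream, with 670.4 reads per kb (638 to 704). The GC content of these regions was 30.3% for vas and 39.9% for Socs36E, and the interval of vas includes 632, the upper quartile of short State 9 regions on 2L. The longest region over bru1 (9000 bp) held 523 reads per kb (508 to 538) at 38.1% GC. bru1 was also the gene with the most bases in short State 9 regions, 42400 bp of its 138435 bp (30.6%), with 2 of its 6 TSSs.

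The other genes with the most bases in such regions were CG42784 (39197 bp), the atypical cadherin gene ds (34971 bp), the calcium channel subunit gene Ca-beta (31982 bp), toc (21200 bp), the phosphodiesterase gene Pde1c (18400 bp), the junctophilin gene jp (16031 bp), CG46468 (14181 bp), the adhesion gene Fas3 (14061 bp) and CG4238 (13600 bp). For jp this was 84.2% of the gene and for Ca-beta 67.4%, whereas for Pde1c it was 16.1%. CG46468 lies within the span of jp, so their bases are largely the same. Fas3 protein is used as a marker of the hub in testis.

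The base composition of short State 9 regions was that of the arm. In steps of 200 bp their GC content was 41.9% ± 9.51 (SD, n = 14550 steps), against 41.5% in long State 9 regions, 44.6% in State 1 and 41.8% over all regions. By region the median was 41.4%, from 18.0% to 64.9%. The motif TATCGATA, which reads the same on both strands and is the core of the element bound by DREF, a factor of housekeeping promoters, was in 0.268% of steps, against 2.26% in State 1 and 0.495% over all regions. GAGAG on either strand, bound by GAGA factor, was in 19.8%, against 21.0% over all regions. TATAAA was in 23.0% against 22.5%, and AAAAAAAA on either strand in 10.0% against 9.84%. In State 1 these last shares were 18.4% and 6.12%. A match is only a string of letters and no measure of binding.

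The summed reads over short State 9 regions were close to those over most other states. On 2L they had a median of 579.8 reads per kb (quartiles 521 and 632, n = 1155 regions), from 0 to 1272. The median was 564 in long State 9 regions, 573 in State 6, 574 in State 8, 588 in State 2, 603 in State 4, 636 in State 1 and 643 in State 3. The ratio of medians was 0.911 to State 1 and 1.03 to long State 9 regions. Of the short regions 883 (76.5%) were below the State 1 median, but the quartiles of State 1 (561 and 723) overlap theirs. The spread here is between regions, which are not replicates, and covers all 4 histones together. In 19 of 22 windows of 1 Mb with at least 20 short State 9 regions their median was below that of State 1, and the medians of the short regions ranged from 528 to 649 reads per kb.

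**Figure D4:**
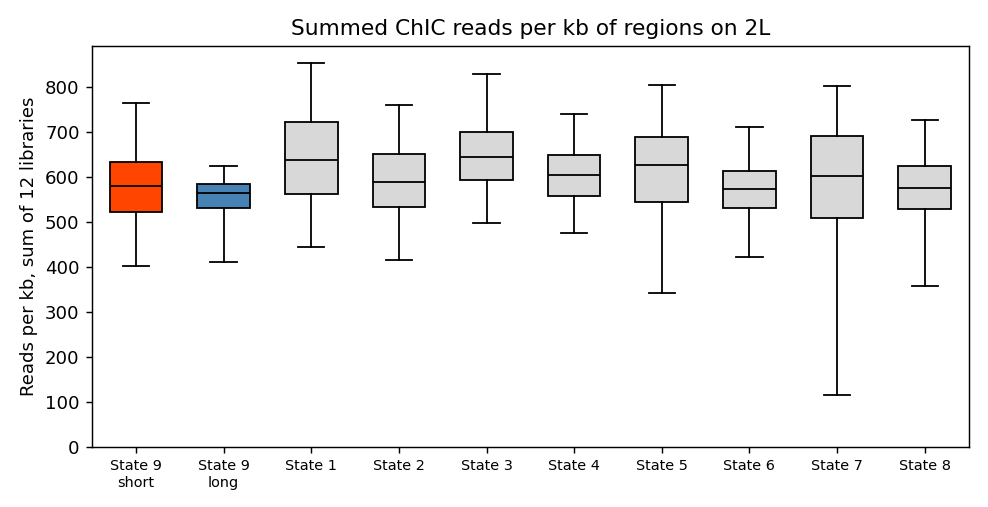
Reads per kb on 2L, summed over all 12 libraries, for regions of each state. Boxes show the quartiles and the median, and whiskers the percentiles 5 and 95. Short State 9 regions (orange) have a median of 579.8, and their box overlaps every other box.

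On the other arms the differences were smaller. On 2R the median of short State 9 regions was 571 reads per kb and that of State 1 562, and on 3R they were 572 and 577. On 3L they were 578 and 609. The listed coordinates were matched to dm6 only on 2L, and the part of coordinates in these values was not tested. On X, which males carry in a single copy, short State 9 regions had a median of 302 reads per kb and State 1 305. The part of copy number in this was not tested.

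Reads per kb varied with base composition among the short State 9 regions themselves. Across the 1155 regions of 2L, GC content and reads per kb had r = -0.48 and rho = -0.54, as a description over regions of the same libraries, which differ in length and so in counting error. Over the 859 regions of 1000 bp or more r was -0.53. The 285 regions under 38% GC had a median of 640.0 reads per kb (quartiles 585 and 720.0), and the 221 regions of 46% GC and over had 485 (428 and 532). State 1 regions showed the same order, with 790.3 and 571. Within each of the 4 GC classes short State 9 regions had a lower median than State 1, so that the ratio, averaged over the classes with the numbers of short State 9 regions as weights, was 0.832. The part of GC content in the read counts was not tested.

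**Figure D5:**
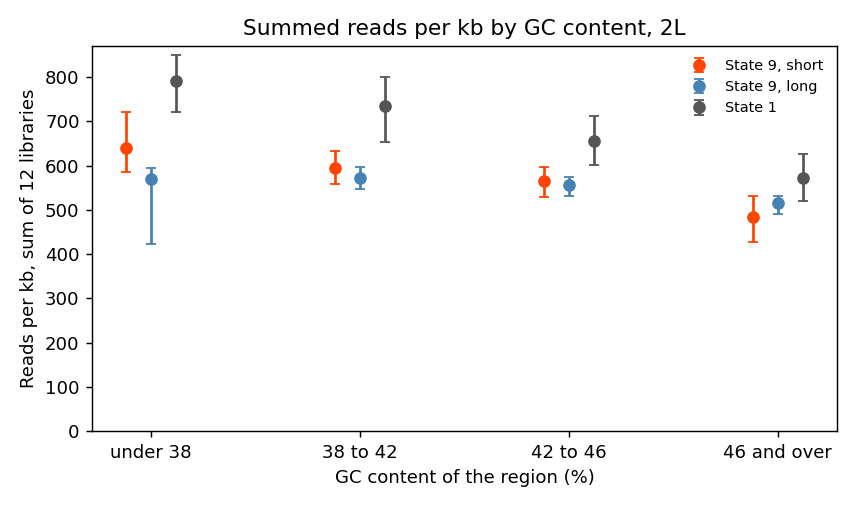
Reads per kb on 2L, summed over all 12 libraries, by GC content of the region in 4 classes. Points are medians and bars the quartiles, for short State 9 (orange), long State 9 (blue) and State 1 (grey). Short State 9 regions go from 640.0 in the lowest class to 485 in the highest, below State 1 in each.

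The regions at the ends of the range differed in sequence context. Among those of 1000 bp or more, the highest value was 917 reads per kb (859 to 978) at chr2L:7984163-7985162, a region with 35.3% GC that covers a TSS of Snoo, a corepressor of Smad proteins, with State 1 at both edges and State 1 or State 2 as the second region. The lowest was 0 reads at chr2L:7732763-7736762, a region of 4000 bp that overlaps CG31904 and lies wholly inside a long State 9 region. A count of 0 allows up to 3.69 reads. Only 2.67% of the 32-letter words of that region occur at a single place in dm6, against 99.0% on average in the short State 9 regions of 2L. Of the 7 regions under 200 reads per kb, 6 had under 50% such words, and no region with at least 95% was that low. In the 5 regions that were mostly transposable element the median was 164 reads per kb. At the other end, 7 of the 11 regions over 900 reads per kb were 600 bp long or less, against 16.5% of all short State 9 regions on 2L. The highest, at 1272, 1114 and 1067 reads per kb, lie within 5200 bp of each other (chr2L:12007363-12012562), outside annotated genes, and have 55.8%, 49.0% and 51.8% GC. The second region of each was State 3. A State 6 region of 400 bp that abuts the highest had 1090 reads per kb, so high values there were not limited to State 9. These State 9 regions were not chosen by a rule set beforehand. All were singled out after their values were seen.

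Reads per kb are given next by the second region, with the GC content that differed beside it. The 21 short State 9 regions of 2L whose most frequent second region was State 1 had a median of 705 reads per kb (564 and 832) and 32.8% GC. The 316 grouped in this way with long State 9 regions had 567 (526 and 605) and 41.6% GC, and the 125 with State 6 had 548 (484 and 596) and 42.8% GC. These quartiles overlap, and no test separated the second region from GC content or length. With a TSS inside the median was 586 (336 regions, quartiles 533 and 635) and without it 575 (819 regions, 516 and 630.2), so these overlap. Regions wholly in introns had 591 and those wholly between genes 583. For the gene families, the 18 regions that held a TSS of the seminal fluid list ranged from 395 to 678 reads per kb, the lowest being the region of Acp1, and the 7 of the chemosensory list from 543 to 614, all within the range of the arm.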

How the data were processed

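ChIC libraries of the 4 tagged histones, 3 of each, were sequenced, and alignment by the authors used Bowtie2 and the dm6 build. The paper reports that reads of low mapping quality and redundant reads were then removed from each library. The deposited table gives whole-number read counts per region for 12 unnamed columns, which were summed and not assigned to libraries, so the depth of each library is not given here. All 12 columns were used only in this sum. The regions came from the modENCODE list of 9 states; its build is not given in the sources used here. The rows of the table were matched to the list, and 42 of 42 pairs of rows with the same coordinates had the same count. In all 19311 nested pairs the inner region had no more reads than the outer. The short State 9 regions of 2L held a median of 1071 summed reads, and a read in 2 regions is counted in each.

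The members and gene lists were chosen with earlier results of these data known. Reads per kb are the summed count divided by length, with exact Poisson intervals (95%) that cover counting error only. No test between groups was made, and replicate error could not be obtained. Genes came from the Ensembl annotation (release 115) and sequence from RefSeq, both dm6, on 2L only, with protein-coding transcripts for TSSs. Starts in the list were read as counted from 0. Composition and motifs were counted in steps of 200 bp. For each gene list, the 4 genes with the longest overlap with a region were named, plus the 10 genes with the most bases in members. The named regions had the highest and lowest reads per kb (1000 bp or more) or, at 200 bp, the highest, lowest and most central GC content. Uniqueness is the share of 32-letter words found at a single place in dm6. Scripts used Python 3.11.15 with numpy 2.4.6, pandas 2.3.3, scipy 1.17.1 and matplotlib 3.10.9, and were tested on simulated data.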

Additional observations from a re-analysis of the deposited data

How the results depend on the processing

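Of 44 values under alternative settings 20 were counted as unchanged. These include the number of regions, which has no interval and did change. It was 5820, against 4721 with a limit of 5000 bp, 6793 with a limit of 20000 bp and 4273 with a minimum of 1000 bp. The rest of the 20 stayed within the interval of the main value. None of these intervals holds replicate spread, so unchanged means only that a value lay inside one. With a limit of 5000 bp the median length was 1400 bp, the State 6 share of edges 22.0%, State 9 and State 4 as second region 50.4% and 15.4%, intergenic sequence 32.5% and intron 35.8%. A limit of 20000 bp gave a median length of 2400 bp and a minimum of 1000 bp gave 2800 bp. On 2L alone State 9 and State 4 as second region took 59.0% and 14.8%. Protein-coding genes alone gave 36.3% intergenic sequence. Bases given no other state than 9 had 35.1% intergenic sequence, 36.2% intron, 6.78% of TSSs, 0.167% of steps with TATCGATA and 9.31% with AAAAAAAA. Steps outside exons had a median GC content of 40.0%, 25.5% with TATAAA and 12.3% with AAAAAAAA. Summed reads over summed length gave 569 reads per kb and a ratio of 0.9 to State 1, and all 5 arms gave 551 and 0.982. The values for all arms include arms whose listed coordinates were not matched to dm6, and X, where the median was 302 reads per kb. Averaging over GC classes, an alternative chosen after seeing the data like the limit to regions with at least 95% unique words, gave a ratio of 0.832. With unique words at 95% the values were 581 and 0.908. No paired analysis was possible because no groups were compared and the counts carry no library names. For the same reason no replicate was left out. Counts limit single regions of 200 bp most, where about 100 reads are summed over 12 libraries.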
